A study of Mus musculus with 22 samples.

Results

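The Hox genes of the 4 mouse clusters were described by their open chromatin in hippocampus and frontal cortex. The rule for the set was gene family and position. It held 38 of the 39 cluster genes among the 49943 genes of the RefSeq table for GRCm38 (mm10). The other gene was not analysed here. A summit, the point of highest signal of a called peak, was counted for a gene when it lay in the gene body or within 2 kb of it. The 38 genes fell into the Hoxa cluster on chromosome 6 (10 genes), Hoxb on chromosome 11 (10 genes), Hoxc on chromosome 15 (9 genes) and Hoxd on chromosome 2 (9 genes).

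Hox genes encode homeodomain transcription factors that give cells their position along the head to tail axis. They lie in the clusters in the order in which they are used along that axis, with low numbers towards the head and high numbers towards the tail. Their front limit in the nervous system is the hindbrain, and in forebrain the clusters are a textbook case of silencing by Polycomb complexes, with CTCF sites that divide them into domains.

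The measurements were OMNI-ATAC-seq, in which a transposase cuts accessible DNA, on 22 libraries from 11 wild type adult male C57BL/6J mice, 1 library per tissue and animal. All animals had been exposed to corticosterone, a stress hormone, in their water for 7 days, to 1 injection of diisopropyl fluorophosphate (DFP), an acetylcholinesterase inhibitor, on day 8, and to further corticosterone at intervals for 5 weeks, as a model of Gulf War Illness. On the last day they received saline (2 animals, sampled after 6 h) or lipopolysaccharide (LPS), a bacterial trigger of inflammation (3 animals sampled after each of 6, 12 and 24 h). No group went without corticosterone and DFP, and no group of saline animals was collected at 12 or 24 h.

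The libraries held 243443 to 352369 summits. Read depth is unknown from peak lists, and in bulk tissue fewer cells of a type and less accessibility per cell cannot be told apart. Between tissues, limma called 18.6% of the genes tested higher in hippocampus and 11.1% higher in frontal cortex. Of 6 hippocampus marker genes, it called 4 higher in hippocampus and 0 in frontal cortex, and all 6 had a summit in every library. Of 6 frontal cortex marker genes, 4 were called higher in frontal cortex and 2 in hippocampus. Of the 7 marker genes of hindbrain and spinal cord, the parts of the nervous system that use Hox genes, 4 had a summit in every library, and the list summed to 11 to 22 summits in hippocampus and 13 to 19 in frontal cortex.

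The Hox promoters are shown first because promoters rich in CpG are open in most genes of these libraries. RefSeq promoter windows (GRCm38.p6, 250 bases before to 50 after each start) were matched for 22 of the 38 genes, as 24 windows. They cover all Hoxd members and all Hoxa members but Hoxa4. Of Hoxb they cover only Hoxb1, Hoxb4 and Hoxb8, and of Hoxc only Hoxc4. Of the 24 windows, 20 had no peak over them in any library, 3 had one in 1 library only (Hoxa5, Hoxd10 and the second start of Hoxd11), and 1, that of Hoxd1, had one in 17 libraries. Among 12067 promoter windows of protein-coding genes with at least 10 CpG dinucleotides, 83.6% had a peak in all 22 libraries and 5.61% in none. None of the 17 Hox windows with at least 10 CpG had a peak in all 22 libraries, and 76.5% had none in any. With at least 20 CpG the share without a peak was 2.43% of 7641 windows over protein-coding genes and 63.6% of the 11 Hox windows.

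The 250 bases before the start of 4 Hox genes are printed 5′ to 3′ on the gene's strand, with each CpG in capitals, to set the open promoter beside 3 others that have as many CpG or more. Hoxd1 (chr2:74762730-74762979, plus strand) had a peak over its promoter window in 6 hippocampus and 11 frontal cortex libraries. Hoxa5 (chr6:52204588-52204837, minus strand) has the same number of CpG in its whole window, 29, and had a peak in 1 hippocampus library. Hoxd13 (chr2:74667975-74668224, plus strand, 37 CpG in the window) and Hoxa13 (chr6:52260881-52261130, minus strand, 45 CpG) had a peak in no library. Hoxa13 had the most CpG of the 24 windows.
Hoxd1: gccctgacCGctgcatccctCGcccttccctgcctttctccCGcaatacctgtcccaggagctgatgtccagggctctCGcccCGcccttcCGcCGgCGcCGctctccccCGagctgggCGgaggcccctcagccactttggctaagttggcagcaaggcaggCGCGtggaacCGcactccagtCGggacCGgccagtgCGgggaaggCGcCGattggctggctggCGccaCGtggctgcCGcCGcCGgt
Hoxa5: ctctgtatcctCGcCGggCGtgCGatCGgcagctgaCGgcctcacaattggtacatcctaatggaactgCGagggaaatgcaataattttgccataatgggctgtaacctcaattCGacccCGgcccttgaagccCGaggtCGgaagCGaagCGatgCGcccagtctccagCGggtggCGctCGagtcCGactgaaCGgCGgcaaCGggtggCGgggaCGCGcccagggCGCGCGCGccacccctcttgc
Hoxd13: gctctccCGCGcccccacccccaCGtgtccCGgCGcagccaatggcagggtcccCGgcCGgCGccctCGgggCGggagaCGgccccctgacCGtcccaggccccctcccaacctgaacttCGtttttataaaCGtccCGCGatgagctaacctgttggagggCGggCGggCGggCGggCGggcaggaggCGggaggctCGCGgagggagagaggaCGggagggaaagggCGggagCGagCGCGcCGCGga
Hoxa13: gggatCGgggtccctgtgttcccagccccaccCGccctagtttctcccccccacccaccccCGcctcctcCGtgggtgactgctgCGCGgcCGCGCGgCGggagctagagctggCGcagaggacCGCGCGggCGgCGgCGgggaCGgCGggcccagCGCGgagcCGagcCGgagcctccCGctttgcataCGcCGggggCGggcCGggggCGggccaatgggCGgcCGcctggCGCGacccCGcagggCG

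The sequences show CpG spread along all 4 promoters, with 24 in the printed bases of Hoxd1, 28 in Hoxa5, 31 in Hoxd13 and 35 in Hoxa13. GC content of the whole windows was 69.7% for Hoxd1, 61.7% for Hoxa5, 74.3% for Hoxd13 and 81% for Hoxa13. The letters TGATNNAT, which Hox proteins bind together with Pbx partners, were searched on both strands. They occurred in 4 of the 24 Hox windows (16.7%), those of Hoxa2, Hoxb1, Hoxb8 and the second start of Hoxd11, and in 7.45% of all 21263 windows of protein-coding genes. None of the 4 printed promoters holds them.

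**Figure D1:**
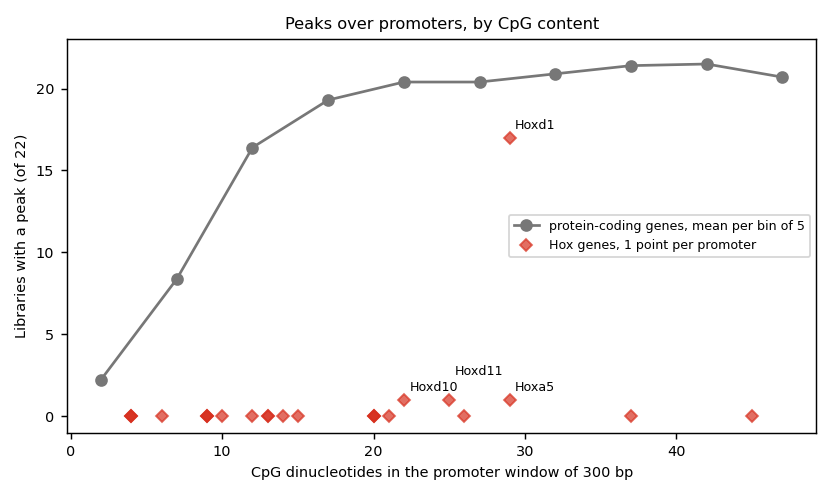
Number of the 22 libraries with a peak over a promoter window (vertical axis) against the number of CpG dinucleotides in its 300 bp (horizontal axis), with grey points for the mean over protein-coding genes in bins of 5 CpG and red diamonds for the 24 Hox windows. The grey mean lies above 20 libraries from 20 CpG on, while the Hox windows lie at 0 or 1 library except Hoxd1, at 17.

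Summits were sparse over the gene bodies as well. The members had a median of 0.0153 summits per kb of window, averaged over the 22 libraries, against 0.181 over 21887 protein-coding genes. Hoxa9 lay above that protein-coding median, at 0.22 summits per kb, and the other 37 genes lay below it. A summit was present in all 22 libraries for 6 of 38 members (15.8%) and in none for 12 (31.6%). The same shares over protein-coding genes were 74.4% and 15%. Another 6 members had a summit in 1 library only (Hoxa5, Hoxa6, Hoxb9, Hoxb13, Hoxd8 and Hoxd9), and the remaining 14 in 6 to 20 libraries.

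The 12 members without a summit in any library were Hoxa2 and Hoxa7, Hoxb1, Hoxb2 and Hoxb4, Hoxc4, Hoxc8, Hoxc9, Hoxc11, Hoxc12 and Hoxc13, and Hoxd4. They hold genes of the head side, among them Hoxa2, Hoxb1 and Hoxb2, which pattern hindbrain segments, and genes of the tail side such as Hoxc13, which is used in hair and nail. In the Hoxc cluster 6 of 9 members had no summit, against 2 of 10 in Hoxa, 3 of 10 in Hoxb and 1 of 9 in Hoxd. Of the 6 microRNA genes inside the clusters, Mir10a, Mir10b, Mir196a-1, Mir196a-2 and Mir196b also had none within 2 kb in any library, and Mir615, which lies at Hoxc5, had one in 16.

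**Figure D2:**
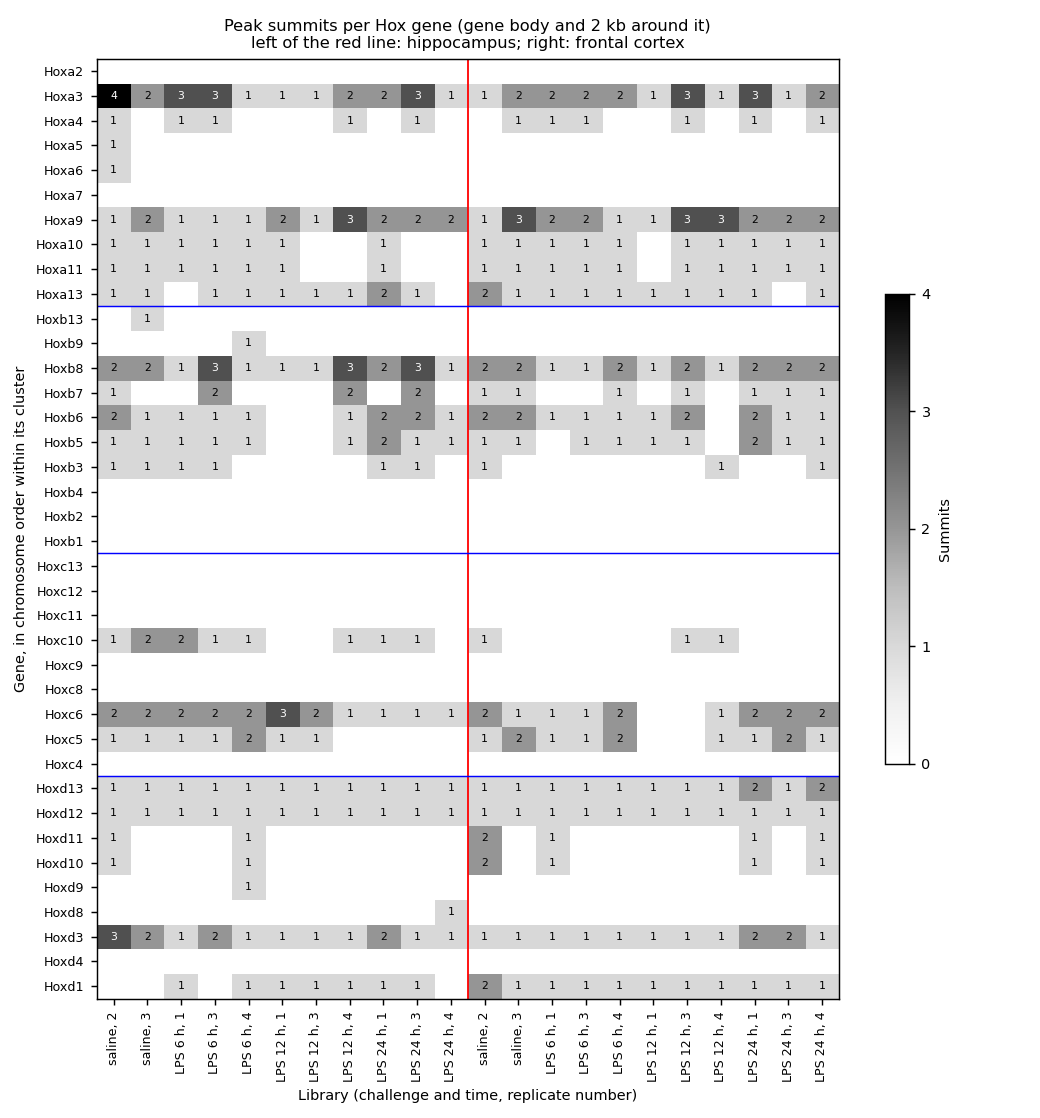
Peak summits counted in each of the 38 Hox genes (rows, in chromosome order within each cluster) in each of the 22 libraries (columns), with darker cells and printed numbers for more summits and white for 0. Hoxd12, Hoxd13, Hoxd3, Hoxa3, Hoxa9 and Hoxb8 are filled across all columns, and 12 rows are empty.

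The RefSeq models of 4 members are long and lie over or beside others (Hoxa3 44.0 kb, Hoxb3 40.8 kb, Hoxd3 36.3 kb and Hoxc4 18.8 kb), so 1 summit can count for several genes. Counted once each, the summits within all members numbered 15.1 ± 3.65 per hippocampus library (SD, n = 11) and 14.7 ± 3.38 per frontal cortex library (SD, n = 11). Hippocampus was higher in 7 animals, lower in 3 and equal in 1. No p is given for these totals. By cluster the means were 5.27 ± 1.42 in hippocampus and 5.73 ± 1.42 in frontal cortex for Hoxa, and 3.64 ± 1.75 and 3.18 ± 1.08 for Hoxb (SD, n = 11 each). For Hoxc they were 2.73 ± 1.01 and 1.82 ± 0.982, and for Hoxd 3.45 ± 0.82 and 4.0 ± 1.41. Of the 11 animals, hippocampus was higher in 3 and frontal cortex in 5 for Hoxa, 6 and 3 for Hoxb, 6 and 2 for Hoxc, and 1 and 5 for Hoxd, and the others had equal numbers. Per 100 kb of covered sequence Hoxa held the most summits, 5.94, followed by Hoxd with 4.15, Hoxb with 3.43 and Hoxc with 2.41.

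Within Hoxa, Hoxa3, a head-side gene needed for throat organs, had 1, 2 and 4 summits (lowest, median and highest library) in hippocampus and 1, 2 and 3 in frontal cortex. Hoxa9, which is used in limb and blood progenitors, had 1, 2 and 3 in either tissue. Hoxa13, which acts in digits and the urogenital tract, had 0 to 2 in both, with none in 3 of the 22 libraries. In Hoxb, Hoxb8 had 1, 2 and 3 summits in hippocampus and 1, 2 and 2 in frontal cortex. Hoxb6 and Hoxb5, genes of the trunk, ranged from 0 to 2 in either tissue. The tissues overlapped in each of these genes.

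Within Hoxc, Hoxc6 had 1, 2 and 3 summits in hippocampus and 0, 1 and 2 in frontal cortex. Hoxc5 had 0 to 2 in both tissues. Hoxc10, a gene of the lumbar spinal cord, had a summit in 8 of 11 hippocampus and 3 of 11 frontal cortex libraries. In Hoxd, Hoxd12 had exactly 1 summit in every library. Hoxd13, a gene of the digits, had 1 in every library but 2, frontal cortex at 24 h after LPS, replicates 1 and 4, which had 2. Hoxd3 had 1 to 3 in hippocampus and 1 to 2 in frontal cortex.

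Which stretches were open was then asked with windows reaching 250 bp to either side of a summit, built from all libraries over the genome. Of 563375 windows, 35 had their centre in a member or within 2 kb of it. Of the 35, 5 (14.3%) held a peak in all 22 libraries, against 18.4% of all windows, and 11 (31.4%) held one in a single library, against 20.6%. The differences between these shares were not tested. In the authors' deposited peak lists each peak carries a fold over background, given here as its percentile among the peaks of the same library.

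The 5 windows open in all libraries lay outside the matched promoter windows. The strongest, chr11:96278715-96279215, lies between Hoxb9 and Hoxb8. Its centre is 436 bp from the RefSeq model of Hoxb8, which begins at 96279401, and 2370 bp from Hoxb9. The matched promoter window of Hoxb8, 96281655 to 96281954, lies further into that model and had no peak. Its fold ranged from 7.24 to 10.2 and its percentile had a median of 92.2. Next was chr2:74715707-74716207 between Hoxd8 and Hoxd4, inside the long Hoxd3 model and over one end of the noncoding gene Hoxd3os1 (74710044 to 74716130). It had a median percentile of 87.5, with folds of 3.55 to 10.4. In Hoxa, chr6:52221553-52222053 lies between Hoxa7 and Hoxa9 (median percentile 83.3), and chr6:52211481-52211981 lies between Hoxa6 and Hoxa7, inside the long Hoxa3 model and the noncoding gene Hoxaas3 (median percentile 71.3). The fifth, chr2:74672913-74673413 between Hoxd13 and Hoxd12, is the single summit of Hoxd12 (median percentile 61.2).

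Hoxc held no window open in all libraries. Its most frequent member windows were in 16 of 22 libraries, chr15:102999110-102999610 within Hoxc6 and chr15:103013425-103013925 between Hoxc6 and Hoxc5. A window between Hoxc9 and Hoxc8 (chr15:102987343-102987843), 2946 bp from Hoxc8 and so outside the 2 kb, was in 21 libraries. Peaks limited to the 50000 strongest intervals of each library left the Hoxb9 to Hoxb8 window in 19 libraries, the Hoxd3 one in 9, that between Hoxa7 and Hoxa9 in 6, and the other 2 in none.

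**Figure D3:**
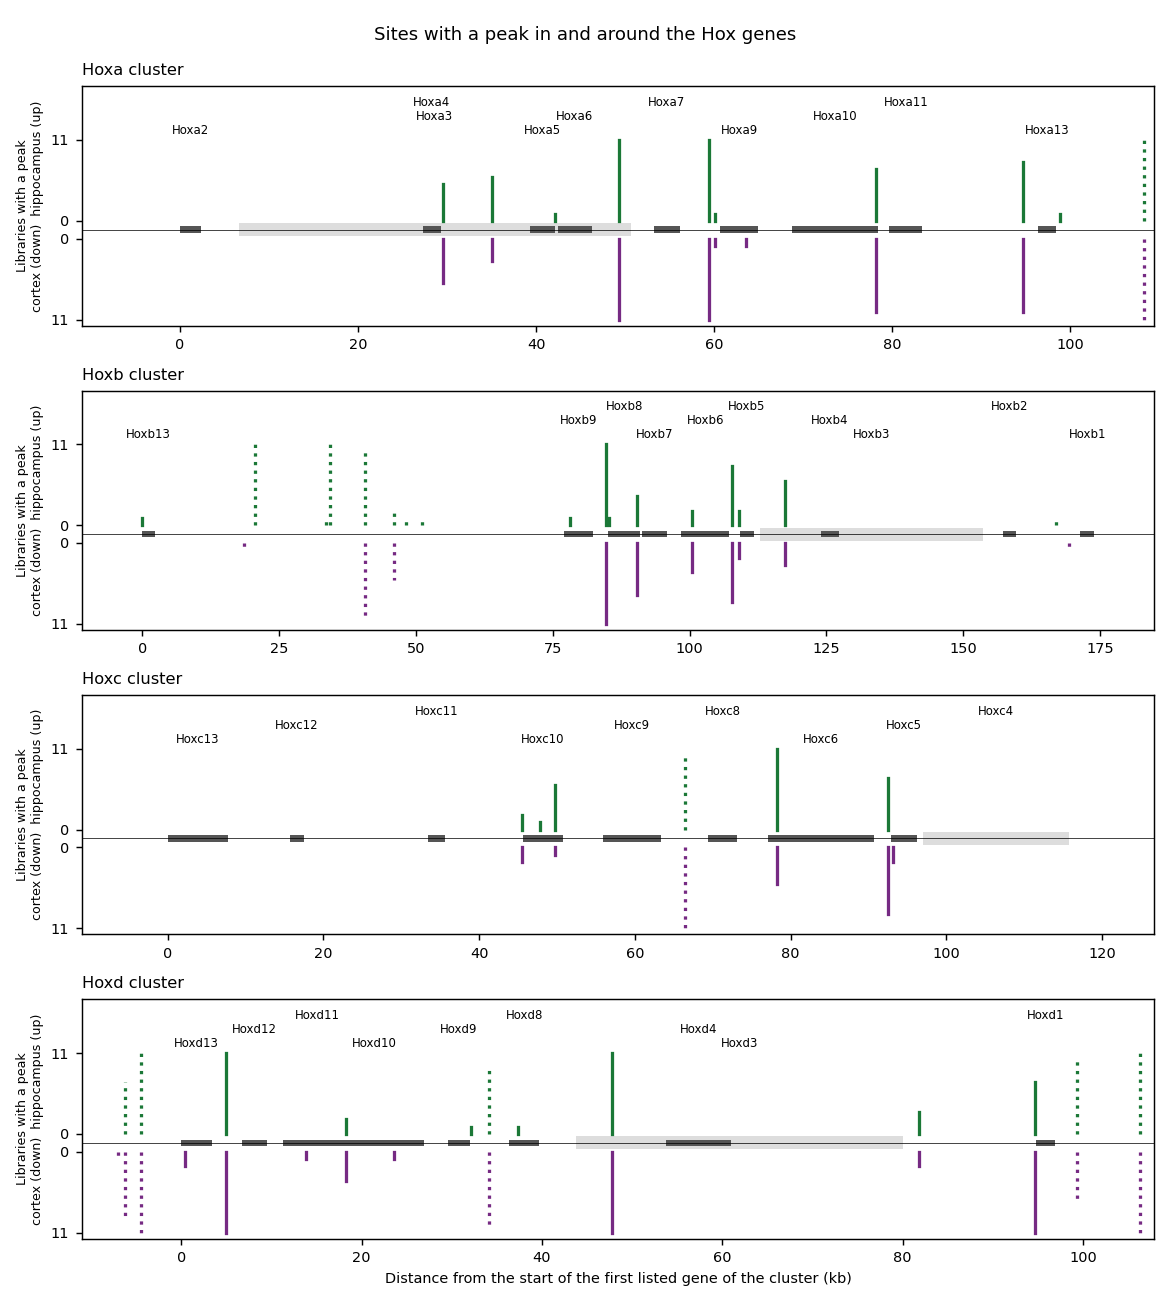
Windows with a peak along the 4 clusters, with the distance from the first listed gene in kb on the horizontal axis and the number of libraries with a peak on the vertical axis, upwards for hippocampus (green) and downwards for frontal cortex (purple), each to 11 (solid lines, windows within 2 kb of a member; dotted lines, other windows; dark boxes, gene bodies; light boxes, the 4 long models). The 5 solid lines that reach 11 both ways stand between dark boxes.

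Whether hippocampus and frontal cortex differ at Hox genes was tested on log2(summits + 1) over all genes with a mean of at least 1 summit, with limma. The filter left 29649 genes, 8 of them Hox genes (Hoxa3, Hoxa9, Hoxb6, Hoxb8, Hoxc6, Hoxd3, Hoxd12 and Hoxd13). Of all genes tested, 29.7% differed between tissues at an adjusted p under 0.05, and of the 8 Hox genes none did. At an unadjusted p under 0.05 there was 1, Hoxc6, against 11669 of all 29649 genes. An exact sign-flip permutation test over the 11 animals gave 0 calls among the 8. Over all genes that test called 3850 higher in hippocampus and 2135 in frontal cortex. Hoxc6 was higher in hippocampus by 0.32 ± 0.14 (SE, log2 of summits + 1, limma adjusted p = 0.0946). For Hoxd3 the limma difference was 0.2 ± 0.098 (SE), with a 95% interval of -0.01 to 0.41. The other 6 had differences from -0.18 to 0.15. The median difference of the 8 was 0.03, as it was over all genes tested.

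The filter kept out 30 members with a lower mean, and 2 of these were called when no filter was applied, as named after their values were seen. Of all 49943 genes, 6561 were then called higher in hippocampus and 3799 in frontal cortex. Hoxd1 was lower in hippocampus by a log2 difference of -0.49 ± 0.14 (SE, limma adjusted p = 0.0195), and Hoxc10 was higher there by 0.58 ± 0.19 (SE, limma adjusted p = 0.0441). Leaving out 1 animal also made calls among the 8. Without the animal of LPS 12 h replicate 4, Hoxc6 (limma adjusted p = 0.00157) and, in the other direction, Hoxb6 (0.0352) passed. So did 4962 of all 29649 genes tested towards hippocampus and 2970 towards frontal cortex. Without that of LPS 24 h replicate 3, Hoxd13 did (log2 difference -0.15, limma adjusted p = 9.51e-05). Over all genes, 4811 were then called higher in hippocampus and 2861 in frontal cortex. Hoxd13 then had 2 summits in the remaining frontal cortex libraries at 24 h and 1 in every other library. With no spread within groups, this p does not measure differences between animals.

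The windows gave a closer view of these genes. Presence in 11 hippocampus against 11 frontal cortex libraries was compared by Fisher's exact test over the 327334 windows found in 2 to 20 libraries. Across the genome 18.3% were called more frequent in hippocampus and 12.2% in frontal cortex. Among the 19 member windows tested, 1 was called in hippocampus and 0 in frontal cortex. It was the Hoxc6 window chr15:102999110-102999610, with a peak in 11 of 11 hippocampus and 5 of 11 frontal cortex libraries (Fisher's exact test, two-sided p = 0.0124, adjusted p = 0.0406).

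At this Hoxc6 window the frontal cortex peaks were in saline replicate 2, LPS 6 h replicate 4 and all 3 libraries at 24 h, and none was found in the 3 libraries at 12 h. Its peaks were of middling height, with a median percentile of 36.1. With the animal as a block (exact sign test over animals) the adjusted p was 0.0989, and no member window was called. The call was also lost when peaks under a -log10 q of 5 were dropped, where the window was in 3 hippocampus and 2 frontal cortex libraries, and when 1 of 5 animals was left out (LPS 6 h replicates 1 and 3, LPS 12 h replicates 1 and 4, saline replicate 3). Markers of other cell types were called between tissues too, where 18.6% of all genes tested were higher in hippocampus. Of the markers of meninges and fibroblasts, the latter a cell type that carries Hox expression in the trunk and limbs, limma called 3 of the 7 tested higher in hippocampus and 0 in frontal cortex. All 8 had a summit in some library, and their sum was 26 to 41 in hippocampus and 10 to 26 in frontal cortex. Of choroid plexus markers 3 of 7 were called higher in hippocampus and 0 in frontal cortex, although their median log2 difference was -0.11, with sums of 36 to 45 and 29 to 44 and no summit in any library at Otx2. Endothelial and mural markers had 2 of 9 and 0, with sums of 69 to 106 and 58 to 85. Blood leukocyte markers had 1 and 1 of 7, with sums of 31 to 52 and 32 to 48 and none at S100a9 and Ly6g. Their part in the result was not tested.

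The open promoter of Hoxd1 stood the other way. Hoxd1, a head-side gene of its cluster, has its start next to the noncoding gene Haglr, which ends at 74762896. Its window, chr2:74762705-74763205, held a peak in 7 of 11 hippocampus and 11 of 11 frontal cortex libraries (Fisher's exact test, adjusted p = 0.197). Once peaks under a -log10 q of 5 were dropped it was in 1 hippocampus and 9 frontal cortex libraries and was called (Fisher's exact test, adjusted p = 0.00784). It was then the 1 call among 14 member windows tested. Of 214519 windows over the genome, 42249 were called in hippocampus and 32653 in frontal cortex at that setting. The call was found only after the weaker peaks were dropped. The fold percentile of the Hoxd1 window ran from 9.97 to 45.2 in the hippocampus libraries with a peak and from 37.2 to 79.3 in frontal cortex. In hippocampus neither saline library had a peak there, while 7 of 9 LPS libraries did (2 of 3 at 6 h, 3 of 3 at 12 h and 2 of 3 at 24 h). In frontal cortex both saline libraries had one. The difference between saline and LPS at this window was not tested.

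**Figure D4:**
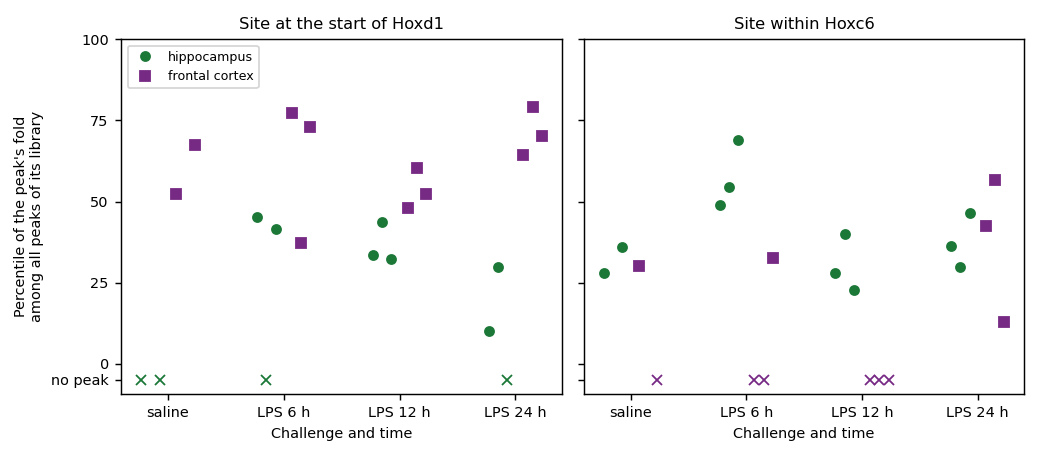
Percentile of the peak's fold among all peaks of its library (vertical axis) at the Hoxd1 start and at the Hoxc6 window, for each library by challenge and time, with circles for hippocampus, squares for frontal cortex and crosses where no peak was called. At Hoxd1 all 11 frontal cortex libraries have a peak and 4 hippocampus libraries have none, and at Hoxc6 all 11 hippocampus libraries have one and 6 frontal cortex libraries have none.

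LPS was compared with saline within each tissue in the same limma fit, with the 3 times sharing the saline libraries. Few genes changed anywhere by this measure. In hippocampus 0.0169% of the genes tested were called at 6 h, 0.0169% at 12 h and 0.0135% at 24 h. In frontal cortex the shares were 0.0236% at 6 h, 0.0337% at 12 h and 0.0776% at 24 h. None of the 8 Hox genes was called by limma at any time in either tissue. At an unadjusted p under 0.05 there were 1, 2 and 1 Hox genes in hippocampus at 6, 12 and 24 h, and 0, 1 and 1 in frontal cortex. Over all 29649 genes tested there were 1945, 1593 and 1841 in hippocampus, and 1761, 1686 and 2411 in frontal cortex.

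The unadjusted values belonged to 4 genes. Hoxd3 had 3 and 2 summits in the hippocampus saline libraries, 1, 2 and 1 at 6 h, 1, 1 and 1 at 12 h and 2, 1 and 1 at 24 h, so that saline and 12 h did not overlap (log2 difference -0.79 ± 0.21 SE, limma adjusted p = 0.49). Hoxb6 had 2 and 1 in hippocampus saline and 0, 0 and 1 at 12 h (limma adjusted p = 0.808). Hoxc6 had 2 and 1 in frontal cortex saline and 0, 0 and 1 at 12 h (limma adjusted p = 0.708). Hoxd13 had 1 and 1 in frontal cortex saline and 2, 1 and 2 at 24 h (limma adjusted p = 0.357). These are steps of 1 or 2 summits, and without frontal cortex LPS 24 h replicate 3 the Hoxd13 difference passed (limma adjusted p = 3.18e-06). Over all 29649 genes tested, 16 were then called higher at 24 h and 7 lower. Hoxd13 then had a single value within every group, so this p measures no spread between animals. The second summit lay in a weak window, chr2:74668424-74668924, with folds of 1.87 and 2.4 at percentiles of 1.79 and 14.4.

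At 24 h against 6 h after LPS, which does not use the saline libraries, 0.00675% of genes were called in hippocampus and 0.0101% in frontal cortex, and no Hox gene was called by limma in either. At an unadjusted p under 0.05 there was 1 Hox gene in each tissue, Hoxc6 in hippocampus and Hoxd13 in frontal cortex. Over all 29649 genes there were 2030 in hippocampus and 3090 in frontal cortex. A difference in the LPS response between tissues was called for 0.0337% of genes and for no Hox gene. An unadjusted p under 0.05 was found for 1413 of all 29649 genes and for 1 Hox gene. It was Hoxd3, with a log2 difference of -0.79 ± 0.25 (SE, limma adjusted p = 0.993).

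The totals of distinct Hox summits are given as a description, with no test and with 2 saline libraries per tissue. In hippocampus they were 20 and 18 with saline, 15, 17 and 16 at 6 h after LPS, 12, 9 and 15 at 12 h, and 18, 17 and 9 at 24 h. In frontal cortex they were 20 and 16 with saline, 13, 12 and 14 at 6 h, 8, 16 and 13 at 12 h, and 19, 14 and 17 at 24 h. The saline libraries lay above the 6 h libraries without overlap in both tissues, and above the 12 h libraries without overlap in hippocampus. In frontal cortex saline overlapped with 12 h and with 24 h, and in hippocampus the highest 24 h library equalled the lower saline one. Per 100000 summits of the library, hippocampus had 5.68 and 6.33 with saline against 4.99 to 6.07 at 6 h, which overlap, and 2.76 to 4.58 at 12 h, which do not. Frontal cortex had 6.32 and 6.19 with saline against 4.58 to 4.93 at 6 h and 2.99 to 5.81 at 12 h, with no overlap at either time. At 24 h the scaled totals were 2.99 to 5.51 in hippocampus and 4.67 to 5.96 in frontal cortex, below saline in both without overlap, unlike the unscaled ones. The 3 times of a tissue share its 2 saline libraries, so these comparisons are not independent. Whether other sets of genes separate likewise was not tested.

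**Figure D5:**
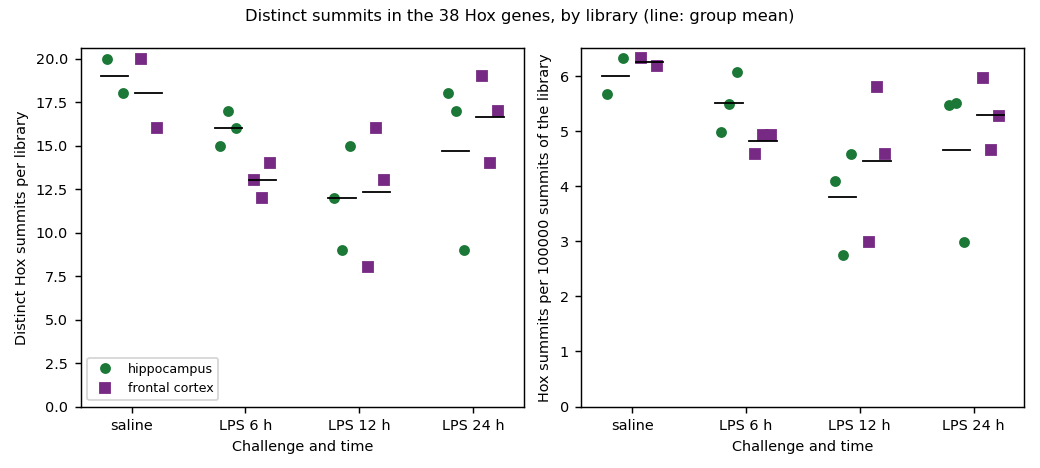
Distinct summits in the 38 Hox genes in each library (left, number; right, per 100000 summits of that library) by challenge and time, with circles for hippocampus, squares for frontal cortex and a line at each group mean. The saline libraries lie at 16 to 20 summits, and 2 hippocampus libraries at 9 and 1 frontal cortex library at 8 are the lowest.

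In the authors' deposited tables of regions that differ between LPS and saline, no region lay within 2 kb of a Hox gene in any of the 6 comparisons. For all genes the share with such a region within 2 kb in the authors' deposited tables was 0.034% at 6 h, 3.42% at 12 h and 0.216% at 24 h in hippocampus. In the authors' deposited tables for frontal cortex it was 0.593% at 6 h, 0.0601% at 12 h and 5.19% at 24 h.

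The stretches around the genes were described as well. In those within 50 kb of a member but more than 2 kb away, chosen after the data were seen, 26 windows were tested, and Fisher's exact test called 8 more frequent in hippocampus and 1 in frontal cortex, where the shares over the genome were 18.3% and 12.2%. Whether these stretches differ from the member windows was not tested. The 2 with the lowest p lie in the long gap between Hoxb13 and Hoxb9. They are chr11:96214682-96215182 and chr11:96228448-96228948, 18322 and 32088 bp from Hoxb13. Each held a peak in all 11 hippocampus libraries and in none of 11 frontal cortex libraries (Fisher's exact test, adjusted p = 4.32e-05; exact sign test with the animal as block, adjusted p = 0.0149).

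Ahead of Hoxc13, chr15:102892490-102892990 was in 11 hippocampus and 1 frontal cortex libraries and the adjoining chr15:102893264-102893764 in 10 and 1. Beyond Hoxd1, chr2:74811050-74811550, which is 46158 bp away and nearer to Mtx2, was in 10 and 0. The others called in hippocampus were chr11:96156541-96157041 within Ttll6 (11 and 2 libraries), chr6:52294612-52295112 between Hoxa13 and Evx1 (7 and 0) and chr15:102883188-102883688 ahead of Hoxc13 (7 and 0). The window called in frontal cortex was chr11:96411065-96411565, 43061 bp beyond Hoxb1, with 0 and 9 libraries. With the animal as block 6 of the 8 and the 1 remained, and the windows at 52294612 and 102883188 were lost (exact sign test, adjusted p = 0.0601 for each). The same 2 were lost when peaks under a -log10 q of 5 were dropped, the latter with no library left and the former with 3 and 0 (Fisher's exact test, adjusted p = 0.34). In their place 2 others were called in hippocampus, so that 8 of 21 windows tested were called there and 0 in frontal cortex. They were chr6:52119157-52119657 (11 and 5 libraries, Fisher's exact test, adjusted p = 0.0355) and chr6:52303442-52303942 (11 and 3, adjusted p = 0.00449). Over the genome 42249 of 214519 windows were called in hippocampus and 32653 in frontal cortex at that setting. The frontal cortex window was then in 1 library and was not tested. With the 50000 strongest intervals 6 windows were tested, and Fisher's exact test called 1 in each direction. Over the genome it then called 14784 of 79797 windows in hippocampus and 15124 in frontal cortex.

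The authors' deposited tables list 3 places in these stretches. At chr2:74789501-74789660, 24359 bp beyond Hoxd1, the authors' deposited table for frontal cortex gives higher signal at 24 h after LPS (FDR 1.47e-11) and at 6 h (FDR 0.0473). A peak was called there in all 3 frontal cortex libraries at 24 h and in 1 at 6 h, and in no other library. The authors' deposited table for hippocampus at 12 h gives lower signal at chr11:96228601-96228760 (FDR 0.0256) and chr2:74811251-74811360 (FDR 0.00954). Both lie in windows described above as frequent in hippocampus, and peaks there were called in 3 of 3 and 2 of 3 hippocampus libraries at 12 h.

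Set beside other genes, the Hox members were the sparsest of the lists compared. All 16 forebrain homeobox and patterning genes, Emx2 and Lhx2 among them, had a summit in every library, with a median of 0.278 summits per kb. The same held for 9 of 9 cofactors of the TALE class (Meis, Pbx and Pknox genes, whose products bind DNA with Hox proteins), at 0.277, and for 24 of 24 genes of Polycomb, trithorax and boundary factors, at 0.269. Genes next to the clusters had a summit in all libraries in 13 of 16 cases, at 0.121 per kb, and Evx1, the homeobox gene beside Hoxa13, had none. Among 26 developmental factors used outside the forebrain, 12 had a summit in all libraries, and Myf5 and Pdx1 were among those with none, at 0.0453 per kb. Between tissues, limma called 5 of 14 neighbour genes higher in hippocampus and 0 in frontal cortex, 2 and 2 of 9 cofactors and 1 and 3 of 16 forebrain genes, where the shares over all genes tested were 18.6% and 11.1%. Differences between these lists were not tested.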

How the data were processed

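Peaks were called per library by the authors. Each deposited peak has a score and a fold ratio against background. The deposited p-value and q-value are given as -log10. The submitters' processing notes name MACS2 2.2.7.1, Bowtie2 2.4.4, FastQC 0.11.9 and Trim Galore 0.6.7, and GRCm38 (mm10). A shift of reads for the transposase was not given in the sources used here. The lists hold weak peaks, with a lowest -log10 p near 2, and no read depth. The authors' deposited differential tables give, for each region, whether signal rose or fell and a value taken as -10 times the log10 FDR, per the values in the files.

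The members and lists were chosen with earlier results of these data known. Gene coordinates and promoter sequences come from RefSeq (GRCm38.p6), whose gene table gives no strand. Summits per gene (body and 2 kb) were tested with limma 3.58.1 in R 4.3.3 on log2(count + 1), with trend, over genes with a mean of at least 1 and 8 groups of libraries. Windows of 250 bp to either side of a summit were scored present where a peak overlapped them by 50% of the shorter, and promoter windows of 300 bp likewise. All p-values were adjusted by Benjamini-Hochberg over everything tested, at 0.05. Both tests were tested on simulated data. Libraries of a tissue come from separate animals. Both tissues of an animal carry its number in the labels, which pairs them. Deviations of the paired libraries from their group means correlated from -0.0295 to 0.154 over 11 animals (median 0.0286), with 2 above 0.1. In 8 of the 11 animals the hippocampus library correlated best with the animal's own frontal cortex library among those of its group. Named were, per cluster, the 3 members with the most summits and the 2 with the fewest, those in all or no libraries, those called, called windows and windows in all libraries. Hoxd1, Hoxc10 and the windows of the flanks were added after their values were seen, as were the microRNA genes and the promoter counts. Alternatives covered scaling, stricter peaks, distances, the filter, the pseudocount, blocking and left-out libraries. Python 3.11.15, numpy 2.4.6, pandas 2.3.3, scipy 1.17.1 and matplotlib 3.10.9 were used.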

Additional observations from a re-analysis of the deposited data

How the results depend on the processing

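Across the limma alternatives no Hox gene was called in most settings. The exceptions were 2 calls between tissues with no filter on low values, 0 to 2 on leaving out each animal, and 0 to 1 on leaving out each library for frontal cortex at 24 h after LPS against saline and against 6 h. The call against 6 h was Hoxd13 without LPS 24 h replicate 3, where 9 of all 29649 genes were called up and 0 down. The animal as replicate block gave 0 calls between tissues in limma, as without it, and 0 windows in place of 1 in the sign test, and it changed no other call of a Hox gene. With the replicate number as replicate block, 24 h against 6 h in hippocampus gave 2 calls in place of 0, Hoxa9 up and Hoxc6 down. Over all 29649 genes tested, 45 were then called up and 16 down, against 2 and 0 in the main fit. Hoxa9 and Hoxc6 each had the same count of summits in the 3 libraries of a time. As for Hoxd13 above, these 2 calls rest on no spread between animals. Equal replicate numbers at these times are different animals. Same-numbered libraries correlated from -0.0132 to 0.0206 in hippocampus and 2 of 3 correlated best with their own number, and from 0.0355 to 0.0817 in frontal cortex with 3 of 3. With the 50000 strongest intervals no Hox gene passed the limma filter. Only 3 passed it with -log10 q of 5 or more and 2 with gene bodies alone, so these settings could call few. Hoxd12, with 1 summit in every library, could not be called in the main fit.

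Windows called between tissues numbered 0 with the 50000 strongest intervals, 0 to 1 on leaving out each animal, and 9 in the stretches within 50 kb in place of the member windows. Scaling to library totals changed the genes called over the whole genome from 5526 higher in hippocampus and 3278 in frontal cortex to 4281 and 5925, and called no Hox gene. Distinct Hox summits per hippocampus library fell from 15.1 to 7.91 with -log10 q of 5 or more, to 1.36 with the 50000 strongest intervals and to 7.73 in gene bodies alone, and were 18.8 within 5 kb. In frontal cortex they went from 14.7 to 9.0, 1.82, 6.73 and 18.9. Members with a summit in all libraries numbered 3, 0, 2 and 10 in place of 6 under the same 4 settings, and members with none 33, 21 and 6 in place of 12 under the last 3. Shares over protein-coding genes are not given for these settings, so these counts are no comparison with other genes. Within 50 kb, the authors' deposited tables reach 2 members at 6 h and 2 at 24 h in frontal cortex and 3 at 12 h in hippocampus. The shares over all genes in these comparisons were 2.13%, 18.8% and 12.9%. In frontal cortex the same region reaches the members at both times, so neighbouring members are not counted independently.

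The values are small whole numbers, so 1 summit decides much of any difference between groups of 2 or 3 libraries. Weak peaks make up much of the counts, as the stricter settings show. Peak lists do not tell a closed site from one missed at lower depth, and no saline group was collected at 12 or 24 h.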
